A study of Homo sapiens with 8 samples.

Results

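The CD3 chains and the classical T-cell surface markers form a set of 10 genes out of 64252 in each deposited table, namely CD3D, CD3E, CD3G, CD247, CD4, CD8A, CD8B, CD2, CD5 and CD7. They were selected as a list of symbols, each of which matched exactly 1 Ensembl gene. Total RNA was sequenced from 2 human T-cell acute lymphoblastic leukaemia (T-ALL) lines, 6T-CEM, a derivative of CCRF-CEM, and J.gamma1, a derivative of Jurkat known for lacking the signalling enzyme PLCγ1 (its mRNA, PLCG1, was present, with 8720 and 8628 counts in the J.gamma1 controls and 5614 and 5909 in those of 6T-CEM). Each line carried either a control short hairpin RNA (sh-NC, labelled shControl for the samples) or a hairpin against LDB1 (sh-LDB1), delivered by lentivirus and selected with puromycin, which the controls went through as well. The 4 groups had 2 libraries each, 8 in all, and the sources used here do not name which LDB1 hairpin the sequenced cells carried. The labels do not say that the 2 libraries of a group came from separate cultures, so the p-values measure the spread between these libraries, which may be technical.

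CD3δ, CD3ε, CD3γ and CD3ζ (CD247) are the signalling chains that carry the T-cell receptor to the surface and pass its signal on. CD4 and CD8 are the coreceptors that bind MHC molecules and bring the kinase LCK to the receptor, and in the thymus both appear together at the cortical stage before a cell keeps 1 of them. CD7, CD2 and CD5 appear early in T-cell development, and CD5 also dampens receptor signalling. LDB1 is an adaptor without DNA binding of its own that joins LMO, GATA and bHLH proteins bound at E-box and GATA motifs and is known for bringing enhancers and promoters together.

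The members lie at 7 places in the genome (GRCh38, GENCODE 44 gene models). CD3E (chr11:118304730-118316175, plus strand), CD3D (chr11:118339075-118342705, minus strand) and CD3G (chr11:118344344-118355161, plus strand) share 1 cluster, in which CD3D and CD3G are transcribed away from each other across a gap of 1638 bases and CD3D lies 22899 bases from CD3E. CD8A (chr2:86784610-86808396, minus strand) and CD8B (chr2:86815339-86861924, minus strand) are also neighbours, 6942 bases apart. CD247 (chr1:167425027-167518640, minus strand), CD2 (chr1:116754430-116769229, plus strand), CD4 (chr12:6786858-6820799, plus strand), CD5 (chr11:61102489-61127852, plus strand) and CD7 (chr17:82314868-82317608, minus strand) stand apart from the others. Exons of CD247 share 784 bases with POU2F1 on the opposite strand, and whether strand entered the counting is not given in the sources used here.

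The 250 bases before the RefSeq start site (GRCh38.p14) are shown for CD3D, which fell after LDB1 knockdown in J.gamma1, and for CD247 and CD8A, which rose there. Capitals mark, on either strand, the E-box CAGNTG, the GATA motif and the RUNX-type TGNGGT, which do not overlap one another in these windows.
CD3D, chr11:118342706-118342955, minus strand: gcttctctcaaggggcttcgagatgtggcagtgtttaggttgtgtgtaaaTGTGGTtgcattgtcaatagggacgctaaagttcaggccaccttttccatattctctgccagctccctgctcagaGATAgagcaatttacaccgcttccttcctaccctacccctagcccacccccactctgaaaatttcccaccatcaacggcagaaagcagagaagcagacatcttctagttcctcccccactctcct
CD247, chr1:167518530-167518779, minus strand: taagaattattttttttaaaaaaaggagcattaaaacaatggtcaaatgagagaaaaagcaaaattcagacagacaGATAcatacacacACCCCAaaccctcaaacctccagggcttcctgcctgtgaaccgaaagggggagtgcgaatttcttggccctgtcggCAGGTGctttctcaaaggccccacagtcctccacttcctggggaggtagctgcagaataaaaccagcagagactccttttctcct
CD8A, chr2:86808397-86808646, minus strand: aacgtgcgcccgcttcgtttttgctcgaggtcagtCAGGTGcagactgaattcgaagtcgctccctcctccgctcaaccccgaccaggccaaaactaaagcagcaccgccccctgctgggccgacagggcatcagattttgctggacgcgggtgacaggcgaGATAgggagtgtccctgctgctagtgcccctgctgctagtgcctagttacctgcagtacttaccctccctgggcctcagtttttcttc
The CD3D window holds 0 E-boxes, 1 GATA and 1 TGNGGT, the CD247 window 1 of each, and the CD8A window 1 E-box, 1 GATA and 0 TGNGGT. The window before CD2, which is not printed, holds 1 E-box and 1 GATA. Among 35116 promoter windows of the same length, 42.5% held CAGNTG, 45.6% held GATA, 37.7% held TGNGGT and 14.5% held the ETS-type CCGGAA, so these letters are common and their presence is only a description. CD8A has 4 start sites in the RefSeq table, of which the one at the annotated gene start is shown, and the RefSeq start of CD247 lies inside the annotated gene. CD3E, CD3G, CD4, CD8B, CD5 and CD7 had no entry.

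Library totals lay between 26160492 and 30604977 counts, and mitochondrial mRNA took 2.54% to 3.87% of a library. LDB1, the targeted gene, changed by -1.60 on the log2 scale in 6T-CEM (standard error 0.071, adjusted p = 1.02e-09) and by -0.89 in J.gamma1 (standard error 0.075, adjusted p = 3.68e-06), so the relative fall was larger in 6T-CEM. Its level was 107 and 111 CPM (counts scaled to 1000000 per library) in the 6T-CEM controls and 60.1 and 58.8 in those of J.gamma1, and 37.0 and 35.0 against 33.2 and 30.7 after knockdown, so the levels left lay closer together than the control levels. The T-lineage identity of the cells was checked with a list of 19 genes, the 10 members among them. In J.gamma1 all 19 had a group mean over 1 CPM in both groups, and in 6T-CEM 18 did, CD2 being the exception. Of the 8 B-cell markers, 4 were at 0 in both libraries of a group, or 2 in J.gamma1 sh-LDB1, and CD79A led the list at 23.3 and 38.8 CPM in 6T-CEM and 66.0 and 75.5 in J.gamma1, with sh-NC given first. The summed B-cell list lay at 34.0 to 34.6 and 43.1 to 46.4 CPM in 6T-CEM and at 73.3 to 74.8 and 84.5 to 84.7 in J.gamma1, in the same order. The summed list of 8 NK-cell markers was 11.8 to 13.7 with sh-NC and 35.0 to 35.1 with sh-LDB1 in 6T-CEM, and 3.58 to 4.72 and 7.60 to 8.86 in J.gamma1, led by NKG7 in all groups but the J.gamma1 controls, where NCAM1 (2.46 CPM) exceeded NKG7 (1.59 CPM), while KLRF1, NCR1 and FCGR3A were at 0 in all 8 libraries. The summed myeloid list did not exceed 3.19 and the summed erythroid list 1.35 CPM, with ALAS2 at 0 throughout. The part of these markers in the results below was not tested.

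The members together took 0.116% to 0.121% of the counts in the 6T-CEM controls and 0.165% to 0.166% after knockdown, and 0.120% and 0.190% to 0.193% in J.gamma1. Values below are CPM with library sizes adjusted by TMM, a scaling that assumes most genes do not change, and are read between groups for 1 gene at a time. A gene passed at an adjusted p under 0.05 in the quasi-likelihood test of edgeR, adjusted after Benjamini and Hochberg over all genes tested in that comparison. All 10 members were tested in each line.

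**Figure D1:**
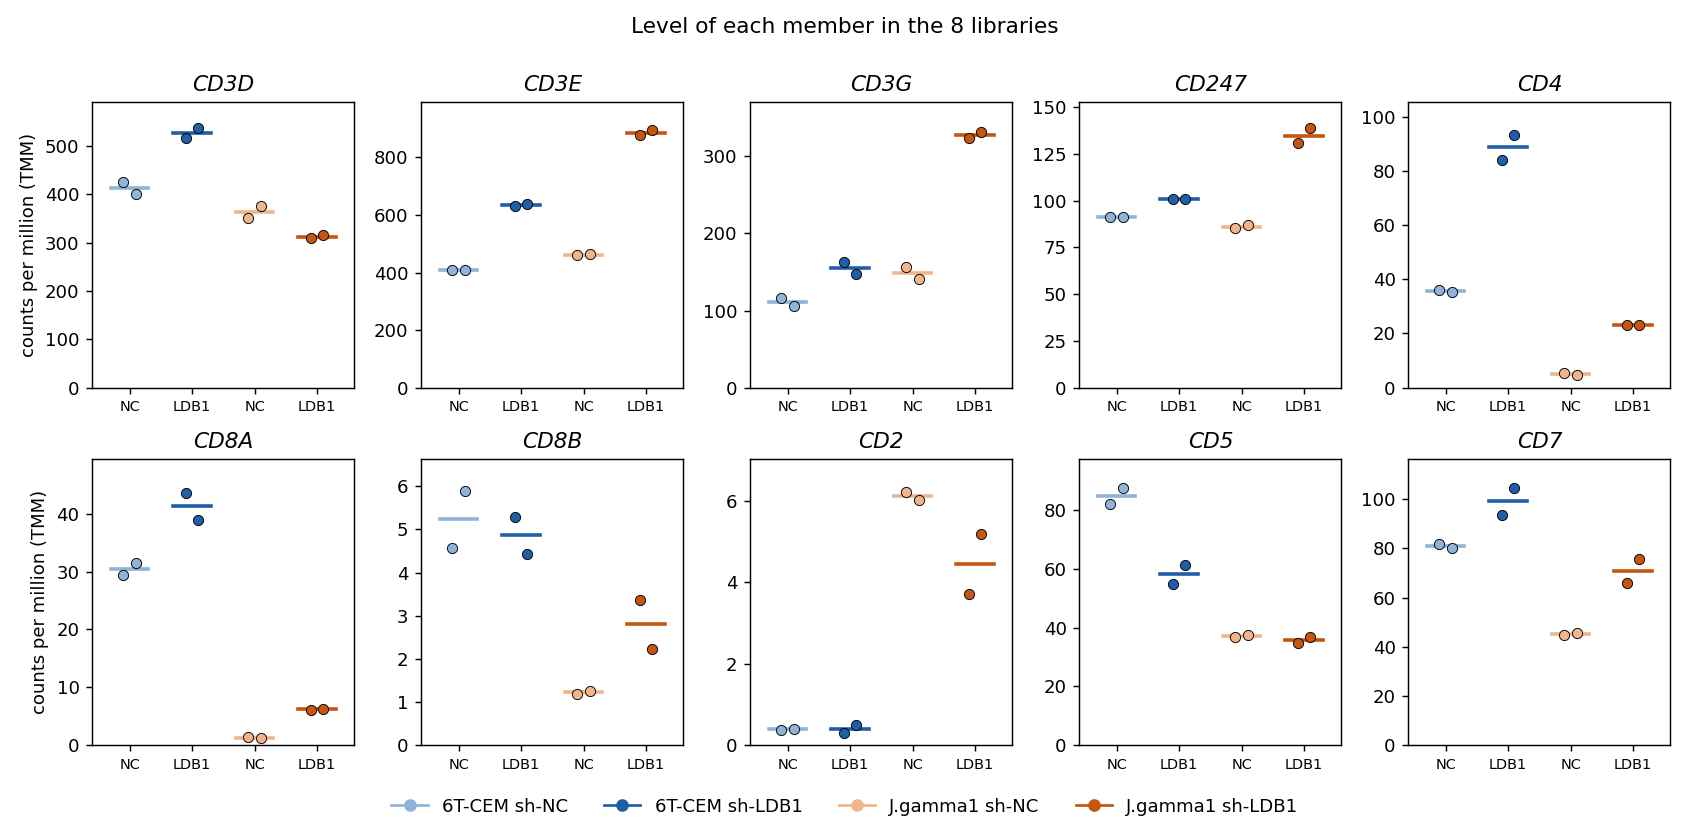
Level of each of the 10 members in the 8 libraries, in TMM-adjusted CPM on a linear axis that starts at 0 and differs between panels. Each point is 1 library and each bar the mean of 2, with 6T-CEM in blue and J.gamma1 in orange, the darker shade for sh-LDB1. CD3E stood at 410 and 409 in the 6T-CEM controls and at 877 and 896 after knockdown in J.gamma1, and CD3D was the only CD3 chain whose sh-LDB1 libraries lay below its sh-NC libraries in J.gamma1.

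In 6T-CEM, 6 of the 10 members were higher after LDB1 knockdown, namely CD3D, CD3E, CD3G, CD4, CD8A and CD7, against 15.1% of all 16059 genes tested. CD5 alone was lower, where 16.2% of all genes were, and CD247, CD8B and CD2 did not pass. CD4 was the only member beyond a log2 fold change of 1, a size that 2.74% of all genes exceeded upward and 2.39% downward. The median log2 fold change of the 10 members was 0.32, beside 0.0027 over all genes tested. In J.gamma1, 7 members were higher (CD3E, CD3G, CD247, CD4, CD8A, CD8B and CD7) against 25% of all 17215 genes tested, CD3D was lower against 26.5%, and CD2 and CD5 did not pass. CD3G, CD4, CD8A and CD8B exceeded a log2 fold change of 1, which 6.67% of all genes did upward and 7.19% downward. The median over the members was 0.80, beside -0.00025 over all genes. Higher in both lines were 5 members (CD3E, CD3G, CD4, CD8A and CD7), where 9.11% of the 14902 genes tested in both were, and 1 member (CD3D) passed in opposite directions, as 3.34% of genes did. The members were chosen with earlier results of these data known, so these counts and medians beside all genes are a description and not a test. RNA from a whole culture does not tell a change per cell from a change in which cells were present.

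**Figure D2:**
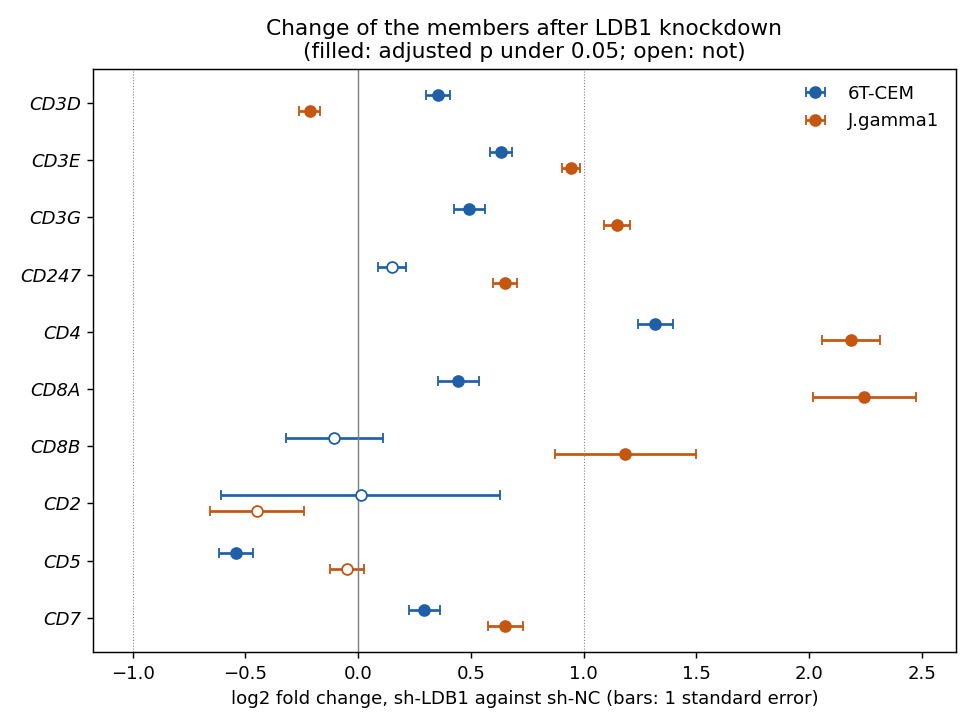
Log2 fold change of each member, sh-LDB1 against sh-NC, in 6T-CEM (blue) and J.gamma1 (orange), with bars of 1 standard error from edgeR and filled points for an adjusted p under 0.05. CD4 and CD8A lie farthest to the right in J.gamma1, at 2.19 and 2.25, and the CD3D points lie on opposite sides of 0.

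Among the CD3 chains, CD3E, which pairs with both CD3D and CD3G, was higher in both lines. Its level was 410 and 409 CPM in the 6T-CEM controls and 631 and 637 after knockdown (log2 fold change 0.63, standard error 0.050, adjusted p = 3.01e-07). The J.gamma1 libraries held 462 and 463 CPM in the controls and 877 and 896 after knockdown (log2 fold change 0.94, standard error 0.041, adjusted p = 2.75e-08). The groups did not overlap, and the gap between them was many times that between the libraries of a group. CD3G, the γ chain, followed the same direction, from 116 and 105 to 163 and 147 CPM in 6T-CEM (log2 fold change 0.49, standard error 0.069, adjusted p = 7.66e-05). In J.gamma1 it went from 157 and 140 to 324 and 332 (log2 fold change 1.15, standard error 0.059, adjusted p = 1.02e-07), the largest change of a CD3 chain in these comparisons.

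CD3D, the δ chain and the nearest neighbour of CD3G, did not follow it in both lines. With sh-NC, 6T-CEM held 427 and 400.1 CPM of CD3D, and with sh-LDB1 516 and 537 (log2 fold change 0.35, standard error 0.054, adjusted p = 0.000171). J.gamma1 held 352 and 375 in the controls and 309 and 316 after knockdown (log2 fold change -0.21, standard error 0.046, adjusted p = 0.00279). Both sh-LDB1 libraries were thus above both controls in 6T-CEM and below them in J.gamma1, where the difference was small but outside the spread. The 95% interval of the J.gamma1 change ran from -0.32 to -0.11 and that of the 6T-CEM change from 0.24 to 0.47.

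Ratios of counts within a library, which need no scaling, show the same for the chains of the chromosome 11 cluster. The CD3D to CD3G ratio was 3.69 and 3.80 in the 6T-CEM controls and 3.16 and 3.65 after knockdown, a small shift. In J.gamma1 it was 2.24 and 2.68 in the controls and 0.952 and 0.951 after knockdown, so CD3G counts came to exceed CD3D counts. The CD3D to CD3E ratio went from 1.04 and 0.977 to 0.818 and 0.844 in 6T-CEM and from 0.762 and 0.811 to 0.352 and 0.353 in J.gamma1. CD3E to CD3G moved less in J.gamma1, from 2.94 and 3.30 to 2.70 and 2.70. In 6T-CEM it went from 3.54 and 3.89 to 3.86 and 4.33, and the groups overlapped. These are ratios of counts and not of transcripts, since the genes differ in length, and with 2 libraries against 2 they were not tested.

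**Figure D3:**
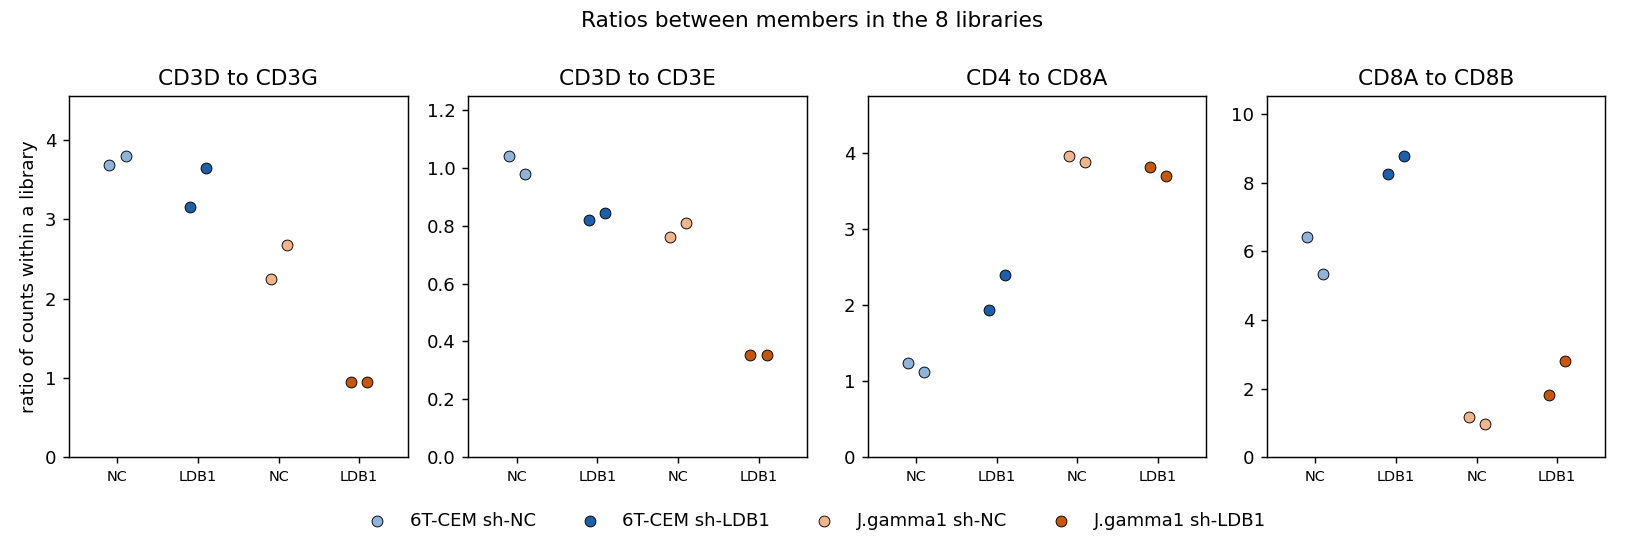
Ratio of the counts of 2 members within each of the 8 libraries, with 1 point per library and axes that start at 0. The CD3D to CD3G ratio of the J.gamma1 sh-LDB1 libraries sits at 0.952 and 0.951, below all other libraries, and the CD4 to CD8A ratio separates the groups in 6T-CEM and far less in J.gamma1.

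CD247 encodes the ζ chain, which joins the complex last and carries most of its signalling motifs. It stood at 91.5 and 91.0 CPM in the controls and 101 and 101 after knockdown in 6T-CEM, a log2 fold change of 0.15 that did not pass (adjusted p = 0.0788, 95% interval 0.018 to 0.28). With library totals alone as the scaling it passed at 0.19 (adjusted p = 0.0304). In J.gamma1 it rose from 85.4 and 87.0 to 131 and 139 CPM (log2 fold change 0.65, standard error 0.053, adjusted p = 2.95e-06). POU2F1, which shares exon bases with CD247, changed by 0.30 on the log2 scale in 6T-CEM (adjusted p = 0.00318) and -0.13 in J.gamma1 (adjusted p = 0.282), and its part in the CD247 values was not tested.

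Of the coreceptor genes, CD4 rose in both lines. In 6T-CEM its level was 36.2 and 35.1 CPM in the controls and 84.0 and 93.3 after knockdown (log2 fold change 1.32, standard error 0.078, adjusted p = 1.84e-08). In J.gamma1, where the control level was far lower, it was 5.48 and 4.79 in the controls and 23.2 and 23.3 after knockdown (log2 fold change 2.19, standard error 0.13, adjusted p = 2.48e-07). The J.gamma1 level after knockdown remained below that of the 6T-CEM control libraries.

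CD8A, the chain found in both forms of CD8, rose as well. Its level in 6T-CEM was 29.4 and 31.5 CPM in the controls and 43.6 and 39.0 after knockdown (log2 fold change 0.44, standard error 0.090, adjusted p = 0.00167). The J.gamma1 controls held only 44 and 39 counts of CD8A and the knockdown libraries 171 and 186, or 1.39 and 1.24 against 6.11 and 6.31 CPM (log2 fold change 2.25, standard error 0.23, adjusted p = 1.49e-05). The relative change was thus larger in J.gamma1 while the absolute level stayed lower than in any 6T-CEM library. CD8B, the partner chain of the αβ form, had 119 and 159 counts in the 6T-CEM controls and 154 and 127 after knockdown. These overlapped and gave a log2 fold change of -0.11 (adjusted p = 0.760, 95% interval -0.56 to 0.35), so a change of that size in either direction was not detectable. The J.gamma1 controls held 38 and 40 counts of CD8B and the knockdown libraries 94 and 66 (log2 fold change 1.19, standard error 0.31, adjusted p = 0.00853). That call rested on few counts and was lost in DESeq2 (1.17, adjusted p = 0.0542) and without J.gamma1 sh-LDB1 replicate 1 (0.87, adjusted p = 0.0955). CD8B2, a near copy of CD8B, was listed at 0 counts in all 8 libraries, so reads split between the copies did not show there.

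The balance of the coreceptors differed between the lines. The CD4 to CD8A count ratio was 1.23 and 1.12 in the 6T-CEM controls and 1.93 and 2.40 after knockdown, so both sh-LDB1 libraries lay above both controls. In J.gamma1 the ratio was 3.96 and 3.87 in the controls and 3.81 and 3.69 after knockdown, nearly the same although both genes rose. The CD8A to CD8B ratio was 6.41 and 5.34 against 8.26 and 8.78 in 6T-CEM and 1.16 and 0.975 against 1.82 and 2.82 in J.gamma1, with few CD8B counts behind each value.

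CD2, CD5 and CD7 did not move as a group. CD7, an early T-lineage antigen, was 81.9 and 80.3 CPM in the controls and 93.7 and 105 after knockdown in 6T-CEM (log2 fold change 0.29, standard error 0.071, adjusted p = 0.00529). This call was lost without 6T-CEM sh-NC replicate 2 (0.28, adjusted p = 0.0544) and without 6T-CEM sh-LDB1 replicate 2 (0.21, adjusted p = 0.0743). In J.gamma1 it rose from 44.8 and 45.4 to 65.8 and 75.6 CPM (log2 fold change 0.65, standard error 0.077, adjusted p = 4.29e-05). CD5, the scavenger-receptor protein that limits receptor signalling, fell in 6T-CEM from 82.0 and 87.4 to 54.9 and 61.3 CPM (log2 fold change -0.54, standard error 0.076, adjusted p = 7.96e-05). Its level in J.gamma1 was 37.0 and 37.5 in the controls and 34.8 and 36.9 after knockdown (log2 fold change -0.05, adjusted p = 0.622, 95% interval -0.21 to 0.12), which leaves out a fall as large as that in 6T-CEM.

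CD2, the adhesion receptor for CD58, was close to undetected in 6T-CEM, with 10 and 11 counts in the controls and 9 and 14 after knockdown. At that depth the log2 fold change of 0.01 (adjusted p = 0.991) has a 95% interval from -1.31 to 1.33 and says little. The J.gamma1 controls had 197 and 190 counts of CD2 and the knockdown libraries 104 and 153, a log2 fold change of -0.45 that did not pass (adjusted p = 0.0943, 95% interval -0.91 to 0.011). Without J.gamma1 sh-LDB1 replicate 2 it passed at -0.71 (adjusted p = 0.0380).

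Whether the lines responded differently was tested as an interaction in a fit to all 8 libraries, as the J.gamma1 change minus the 6T-CEM change. The change was more positive in J.gamma1 for 8 of the 10 members, where 12% of 18552 genes were, and more negative for CD3D, where 12.4% of genes were, while CD2 did not pass. The CD8A change differed by 1.80 (adjusted p = 2.89e-05) and the CD4 change by 0.87 (adjusted p = 0.000425). Of the CD3 chains, CD3G differed by 0.65 (adjusted p = 0.000599), CD247 by 0.50 (adjusted p = 0.000461) and CD3E by 0.31 (adjusted p = 0.00142), while CD3D differed by -0.57 (adjusted p = 0.000122). CD5 differed by 0.49 (adjusted p = 0.00499), its fall in 6T-CEM having no counterpart in J.gamma1. The differences of CD8B (1.29, adjusted p = 0.0277) and CD7 (0.36, adjusted p = 0.0294) were the least firm, and for CD2 the value was -0.46 (adjusted p = 0.561, 95% interval -1.53 to 0.60). The relative fall of LDB1, given above, also differed between the lines (difference 0.70, adjusted p = 0.000237), and its part in these differences was not tested.

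With the control hairpin, the 2 lines already differed in 9 of the 10 members. In 6T-CEM, 6 members stood higher than in J.gamma1, against 31.1% of 18552 genes, and 3 stood lower, against 34.6%. CD8A differed most, at 30.4 ± 1.5 CPM (SD, n = 2) in 6T-CEM and 1.31 ± 0.11 (SD, n = 2) in J.gamma1, a log2 difference of 4.53 (adjusted p = 6.76e-11). CD4 was 2.80 higher (adjusted p = 1.91e-10), CD8B 2.08 (adjusted p = 3.15e-05), CD5 1.19 (adjusted p = 3.36e-08) and CD7 0.85 (adjusted p = 9.79e-07) on the log2 scale. CD2 went the other way, at 0.40 ± 0.016 CPM (SD, n = 2) in 6T-CEM and 6.11 ± 0.13 (SD, n = 2) in J.gamma1 (log2 difference -3.93, adjusted p = 4.54e-07). The CD3 chains differed far less. CD3G was lower in 6T-CEM (log2 difference -0.43, adjusted p = 0.000204) and CD3E by a log2 difference of -0.17 (adjusted p = 0.00156), CD247 did not pass (0.08, adjusted p = 0.190), and CD3D was higher by 0.18 (adjusted p = 0.00561).

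The lines come from separate tables, so line and table cannot be told apart, and scaling matters here. With library totals only, the median log2 difference of all genes was -0.19 in place of -0.045, and CD3D no longer passed (0.040, adjusted p = 0.473). CD3D also lost its call without 6T-CEM sh-NC replicate 1 (0.15, adjusted p = 0.0519) and without J.gamma1 sh-NC replicate 1 (0.14, adjusted p = 0.0731).

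Levels of different members were compared as CPM divided by the kilobases of annotated exon. On that scale CD3E led in all 4 groups, at 154 ± 0.15 (SD, n = 2) in the 6T-CEM controls and 174 ± 0.20 (SD, n = 2) in those of J.gamma1, and CD3D came next at 121 ± 5.5 and 107 ± 4.8 (SD, n = 2 each). In the 6T-CEM controls CD7 (29.6), CD3G (28.8) and CD5 (27.1) followed, and neighbours in that run overlapped between libraries. CD247 (9.75), CD4 (7.83) and CD8A (7.65) came lower, the last pair overlapping as well, and CD8B (0.99) and CD2 (0.24) were lowest. In the J.gamma1 controls the order was CD3G (38.8), CD7 (16.5), CD5 (11.9), CD247 (9.20), CD2 (3.74), CD4 (1.13), CD8A (0.33) and CD8B (0.23), with no overlap between neighbours. After knockdown CD3G reached 85.6 in J.gamma1, close to 91.7 for CD3D. The order depends on the length used. With the length of the MANE Select transcript, an alternative chosen after seeing the data, CD3G stood at 122 against 446 for CD3D in J.gamma1 sh-LDB1, and CD247 (57.0) stood above CD3G (41.1) and CD5 (27.1) in the 6T-CEM controls. With that length CD3D led CD3E in 6T-CEM sh-NC (590 against 301) and in J.gamma1 sh-NC (519 against 340), and CD3E led in J.gamma1 sh-LDB1 (651 against 446).

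**Figure D4:**
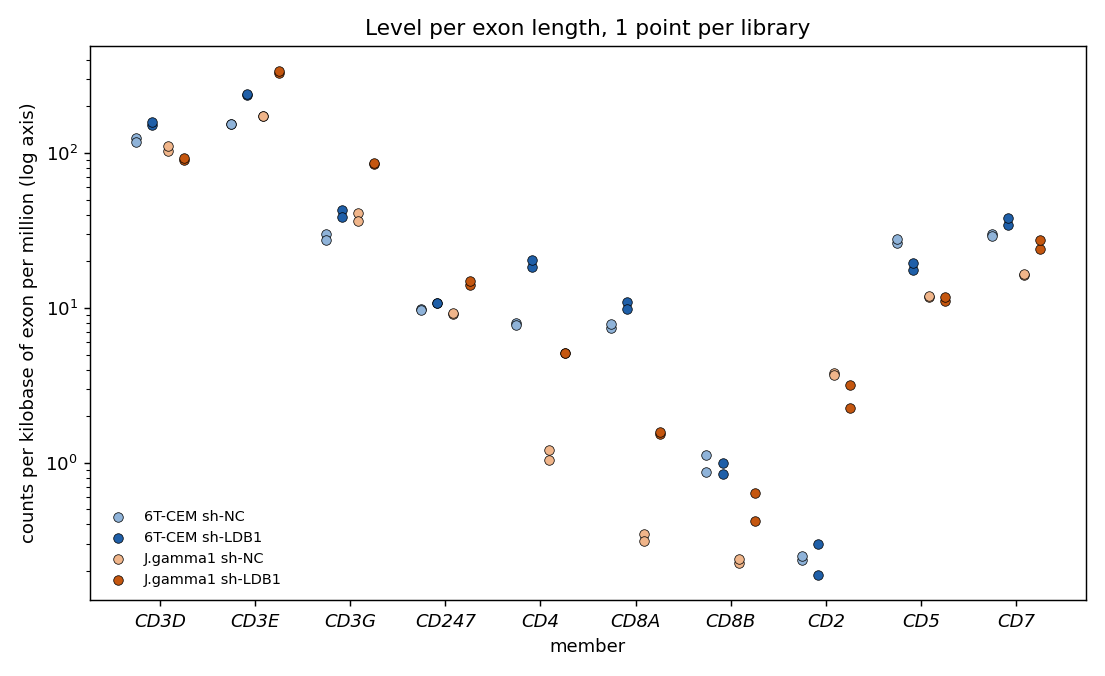
Level of each member as CPM divided by the kilobases of annotated exon, on a log axis, 1 point per library, with 6T-CEM in blue and J.gamma1 in orange and the darker shade for sh-LDB1. CD3E and CD3D lie highest in every group, the lowest group means are CD2 in 6T-CEM at 0.24 and CD8B in the J.gamma1 controls at 0.23, and the lines lie farthest apart for CD8A and CD2.

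The other genes of the T-cell receptor and of thymic development were counted in 7 lists with 109 genes in all. Of these, 97 were tested in 6T-CEM, where 26 were higher, 35 lower and 36 did not pass, and 100 were tested in J.gamma1, where 41 were higher, 39 lower and 20 did not pass. The counts of each list are to be read against the shares over all genes tested, which were 15.1% higher and 16.2% lower in 6T-CEM and 25% and 26.5% in J.gamma1. Over the 92 tested in both lines, 21 were higher in both, 22 lower in both and 9 passed in opposite directions. Of all 14902 genes tested in both, 9.11% were higher in both and 3.34% passed in opposite directions. The share of all genes lower in both was not computed. The median log2 fold change of the list genes was -0.093 for 6T-CEM and 0.085 for J.gamma1, nearer to 0 than the medians of the 10 members.

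Of the receptor chains and their partners, 4 of 9 tested rose and 1 fell in 6T-CEM (median log2 fold change 0.25). In J.gamma1, 5 of 9 rose and 1 fell (median 0.72). These medians lay close to those of the 10 members, 0.32 and 0.80, so the upward shift was not particular to the members. TRAC, the constant region of the receptor α chain, had 59 and 62 counts in the 6T-CEM controls and 627 and 579 after knockdown (log2 fold change 3.19, adjusted p = 3.98e-09). In J.gamma1 it went from 3427 and 3413 to 9391 and 9955 counts (1.65, adjusted p = 1.64e-09). PTCRA, the surrogate α chain of the pre-T-cell receptor, also rose, by 2.12 on the log2 scale in 6T-CEM (adjusted p = 0.00213) and 1.99 in J.gamma1 (adjusted p = 2.72e-05), at low counts of 17 to 271. SIT1, a transmembrane adaptor that dampens receptor signalling, rose by 0.99 in 6T-CEM (adjusted p = 2.26e-08) and 1.43 in J.gamma1 (adjusted p = 2.82e-08). TRAT1, a partner of CD3ζ, fell in 6T-CEM (-0.31, adjusted p = 0.0170) and rose in J.gamma1 (0.73, adjusted p = 2.78e-05). TRBC1 and TRBC2, the β-chain constant regions, are near-identical, so their split of reads is uncertain. The log2 fold change of TRBC1 was 0.21 for 6T-CEM (adjusted p = 0.0847) and -0.98 in J.gamma1 (adjusted p = 0.0452), and that of TRBC2 0.25 (adjusted p = 0.00482) and 0.72 (adjusted p = 0.0282).

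In the list of proximal signalling genes, 6 of 27 tested rose and 7 fell in 6T-CEM, and 15 of 29 rose and 10 fell in J.gamma1. LAT, the scaffold phosphorylated by ZAP70, rose by 0.78 in 6T-CEM (adjusted p = 5.41e-07) and 1.74 in J.gamma1 (adjusted p = 0.00393). LCK, the kinase that CD4 and CD8 carry, had a log2 change of 0.14 in 6T-CEM (adjusted p = 0.0582) and fell in J.gamma1 (-0.38, adjusted p = 2.85e-05). ZAP70, the kinase recruited to phosphorylated CD3 chains, was at -0.05 in 6T-CEM (adjusted p = 0.619) and rose by 0.21 in J.gamma1 (adjusted p = 0.0103). Among genes whose mean was 50 normalized counts or more, the changes beyond 1 in size were led by ICOS in 6T-CEM (1.38, adjusted p = 0.000600), a costimulatory receptor, which was at 0.97 in J.gamma1 (adjusted p = 0.0490). In J.gamma1 THEMIS (2.87, adjusted p = 3.19e-09), needed for thymocyte selection, and the adaptors SH2D2A (4.6-fold, adjusted p = 7.31e-08) and SLA2 (log2 fold change 2.06, adjusted p = 5.26e-09) led. In 6T-CEM these were at 0.40 (adjusted p = 0.101), 0.98 (adjusted p = 1.77e-06) and 0.11 (adjusted p = 0.256) on the log2 scale.

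Among 26 other T-cell surface molecules, 7 of 23 tested rose and 7 fell in 6T-CEM, and 9 of 26 rose and 10 fell in J.gamma1. In 6T-CEM the SLAM-family receptors CD84 and SLAMF6 moved apart, at -1.35 (adjusted p = 7.46e-05) and 1.05 (adjusted p = 6.10e-06), and in J.gamma1 they were at -1.25 (adjusted p = 6.40e-07) and -0.02 (adjusted p = 0.859). In J.gamma1 the interleukin-7 receptor chain IL7R (1.75, adjusted p = 9.48e-08), the SLAM-family receptor LY9 (1.60, adjusted p = 2.86e-05) and the costimulatory receptor CD28 (1.47, adjusted p = 2.51e-08) rose, and in 6T-CEM they were at 0.34 (adjusted p = 0.00235), 0.75 (adjusted p = 0.0413) and -0.17 (adjusted p = 0.0642).

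The stage lists gave mixed counts. Of 12 early thymocyte and precursor genes, 1 of 8 tested rose and 4 fell in 6T-CEM (median log2 fold change -1.10), and 0 of 6 rose and 5 fell in J.gamma1 (median -1.22). Few counts lay behind some of these genes. In 6T-CEM CD34 had 5 to 23 counts and SPI1 12 to 47. In J.gamma1 FLT3 had 13 to 50 and CD44 7 to 17, the latter with a log2 fold change of 1.41 that did not pass. LYL1, a bHLH factor of precursors, fell in both lines (-1.91, adjusted p = 3.98e-09, and -2.35, adjusted p = 9.01e-06), as did HHEX, a homeobox factor (-1.62, adjusted p = 3.85e-09, and -1.23, adjusted p = 0.00169). The 1 gene that rose was MEF2C, a factor of precursors (0.52 in 6T-CEM, adjusted p = 1.34e-05). KIT, the stem-cell factor receptor, fell in J.gamma1 (-1.21, adjusted p = 0.000583) and had 0 to 6 counts in 6T-CEM, where it was not tested. Of the cortical thymocyte genes, 4 of 12 tested rose and 6 fell in 6T-CEM (median -0.56), and 7 of 11 rose and 3 fell in J.gamma1 (median 0.58).

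The cortical list moved in parts. The recombinase gene RAG1 rose in both lines (1.64, adjusted p = 9.09e-11, and 3.22, adjusted p = 3.27e-11), and so did RAG2 (1.04, adjusted p = 7.66e-05, and 0.73, adjusted p = 0.000128). CD1A, an antigen-presenting molecule of cortical thymocytes, fell in both (-1.94, adjusted p = 1.02e-05, and -1.06, adjusted p = 3.16e-06), and so did DNTT, the polymerase that adds bases at receptor joints (-1.65, adjusted p = 0.0134, and -1.20, adjusted p = 5.98e-07), with 6T-CEM given first. The DNTT call in 6T-CEM rested on few counts, 46 and 35 in the controls and 10 and 18 after knockdown. Of the late thymocyte and mature T-cell genes, 3 of 11 tested rose and 5 fell in 6T-CEM (median -0.17), and 4 of 12 rose and 5 fell in J.gamma1 (median 0.011). TRAC, IL7R and CD28, given above, are also in this list. In J.gamma1, 4 genes of this list passed above a log2 fold change of 1 and 4 below -1. S1PR1 fell in both lines (-0.88, adjusted p = 1.80e-05, and -1.17, adjusted p = 2.36e-05). So did CD69 (-0.70, adjusted p = 0.00510, and -1.25, adjusted p = 3.24e-05), with 6T-CEM given first.

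Of 20 coreceptor and lineage regulators, 5 rose and 9 fell in 6T-CEM, and 8 rose and 8 fell in J.gamma1. ZBTB7B, the factor known for CD4 lineage choice, rose in 6T-CEM from 370 and 369 to 1204 and 1217 counts (log2 fold change 1.59, adjusted p = 2.23e-08) and in J.gamma1 from 140 and 176 to 317 and 349 (1.22, adjusted p = 0.000124). RUNX3, which silences CD4 in CD8 cells, fell in both lines (-1.04, adjusted p = 1.26e-07, and -0.40, adjusted p = 0.0202), and RUNX1, which represses CD4 in immature thymocytes, fell as well (-0.33, adjusted p = 0.000239, and -0.97, adjusted p = 1.81e-07). GATA3, required for CD4 cells, fell (-0.54, adjusted p = 1.40e-05, and -0.33, adjusted p = 0.000711), and TOX, required for the CD4 lineage, fell too (-0.26, adjusted p = 0.00385, and -1.01, adjusted p = 5.04e-08), with 6T-CEM given first each time. MYB, a factor of progenitors and cortical thymocytes, fell (-0.94, adjusted p = 7.30e-09, and -2.63, adjusted p = 1.93e-10), and ID3, an inhibitor of E proteins that receptor signals induce, rose (0.72, adjusted p = 2.36e-05, and 2.52, adjusted p = 6.89e-10), in the same order.

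**Figure D5:**
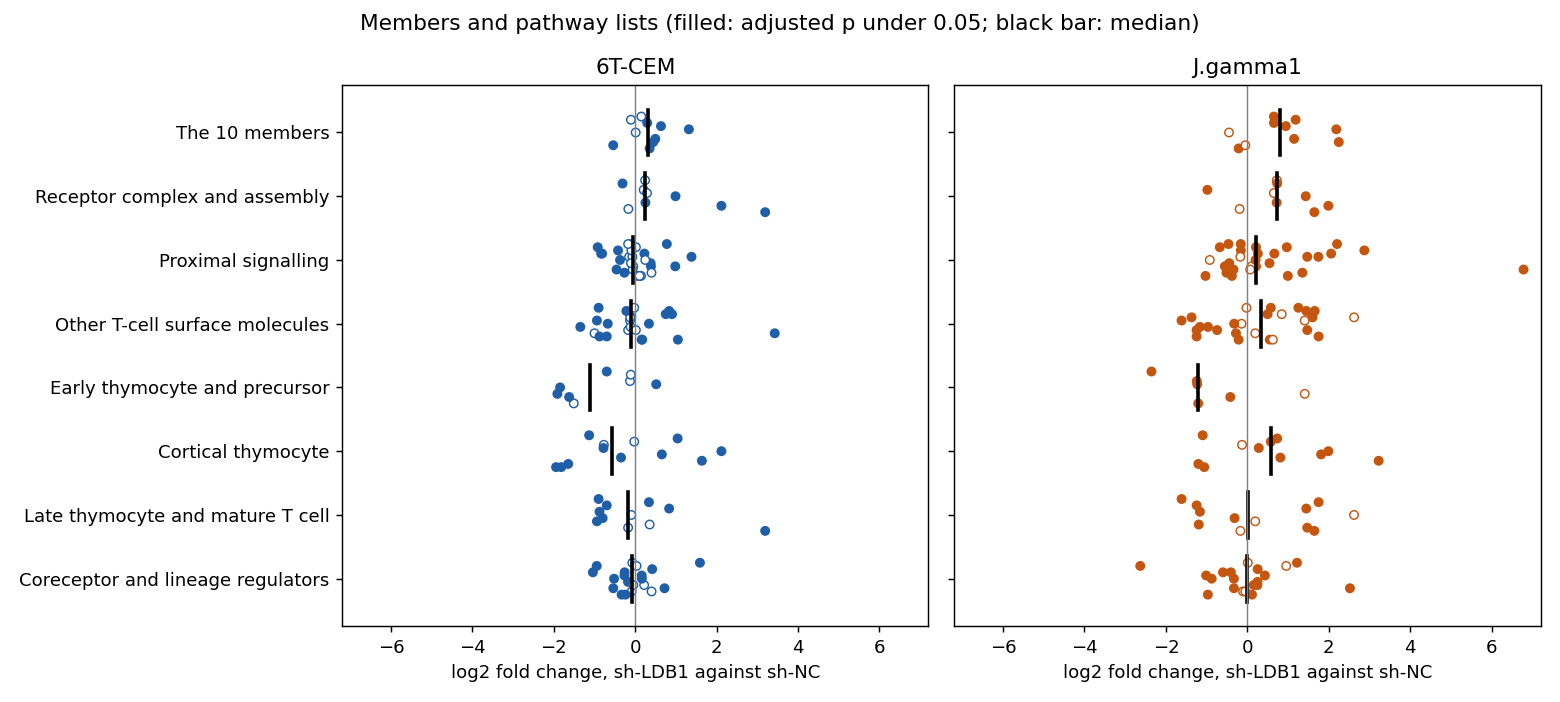
Log2 fold change, sh-LDB1 against sh-NC, of the 10 members and of each tested gene in the 7 lists, in 6T-CEM and J.gamma1, with filled points for an adjusted p under 0.05 and a black bar at the median. The members' medians are 0.32 and 0.80, the receptor complex and assembly medians 0.25 and 0.72, and the early thymocyte and precursor medians -1.10 and -1.22. The members and each list have points on both sides of 0.

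The members that varied most over the 4 groups were CD8A, CD4 and CD2, with group means that spanned 4.53, 3.99 and 2.89 on the log2 scale. Likeness was measured over the 4 group means as the Euclidean distance of log2 CPM, each gene centred on its own mean, among 13614 genes. An offset of 0.5 CPM was added before the log. The nearest to CD4 were ENPP2 (distance 0.12) and SOAT2 (0.25), the nearest to CD8A were CPNE4 (0.37) and ENSG00000204487 (0.41), and the nearest to CD2 were ENSG00000278742 (0.094) and MMP15 (0.11). In the J.gamma1 controls ENPP2 stood at -1, the value of 0 counts with this offset, and CPNE4 at -0.79. Their distances thus depend on the offset. The identifiers had no symbol in the annotation, and likeness over 4 points is a description only.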

How the data were processed

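RNA sequencing libraries of 6T-CEM and J.gamma1 cells, 2 in each of 4 groups, were compared by group as given in the sample labels. The authors mapped paired-end reads of 150 bp on hg38 by HISAT2 2.2.0 and StringTie, and deposited 2 tables, 1 per line, of whole-number counts per gene without normalization. The annotation release, the use of strand, the treatment of reads that match several genes and the step from coverage to counts are not given in the sources used here. Intervals cover the spread between libraries.

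The members and gene lists were chosen with earlier results of these data known. Counts were analysed in R 4.3.3 with edgeR 4.0.16 (TMM, filterByExpr, robust quasi-likelihood fit, Benjamini-Hochberg adjustment over all genes tested), per line for the knockdown and over all 8 libraries for the differences between lines. A standard error is the size of a log2 fold change over the root of its F. Library totals were 26160492 to 30604977. Symbols, exon lengths and positions came from GENCODE 44, with 40995 of 64252 genes given a symbol. List genes were named when their adjusted p was under 0.05, their log2 fold change beyond 1 and their mean 50 normalized counts or more, at most 4 per list and line, besides LDB1 and 14 genes fixed by name. Some list genes that met this rule are not reported here. A gene named in 1 line is given with its value in the other. CD79A, NKG7, NCAM1, PLCG1, KLRF1, NCR1, FCGR3A, ALAS2, POU2F1, MEF2C, S1PR1 and CD69 were named after their values were seen. Replicates differed by more than sampling noise (chi-square per gene 6.63 to 10.6), so none was merged. The planned search of member proteins was not run. The steps were run on simulated counts, drawn independently for each library from the fitted spread, and the outcome is not reported here. Such counts cannot show how the test behaves if the 2 libraries of a group are technical. Alternatives were other scalings, filters and thresholds, DESeq2 1.42.0, thinning to equal depth, summed symbols, the replicate number as a block, 1 fit to all libraries and leaving out each library.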

Additional observations from a re-analysis of the deposited data

Results flagged for a closer look

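The change after LDB1 knockdown differed between the lines for 9 of the 10 members by the interaction test, as the J.gamma1 change minus the 6T-CEM change on the log2 scale. Over all 18552 genes tested, 12% passed as higher and 12.4% as lower. The difference was 1.80 for CD8A, 1.29 for CD8B and 0.87 for CD4. Among the CD3 chains it was 0.65 for CD3G, 0.50 for CD247, 0.31 for CD3E and -0.57 for CD3D, the only one with a change in opposite directions that passed in both lines. It was 0.49 for CD5 and 0.36 for CD7. The values for CD8B and CD7 lost their call when single libraries were left out.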

How the results depend on the processing

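Of 129 values recomputed for the knockdown in 6T-CEM, 126 kept direction and call, as did 127 of 130 in J.gamma1, 147 of 160 for the difference between the lines and 156 of 160 for the control lines, and 0 called values changed sign. With a log2 fold change beyond 1 required, 1 member was higher and 0 lower in 6T-CEM and 4 and 0 in J.gamma1, and of the list genes 8 were higher and 9 lower in 6T-CEM and 19 and 16 in J.gamma1. With 1 library left out, the members higher and lower numbered 5 to 6 and 1 in 6T-CEM, 6 to 7 and 1 to 2 in J.gamma1 (2 without J.gamma1 sh-LDB1 replicate 2), 6 to 7 and 1 for the difference between lines and 5 to 6 and 3 for the control lines. List genes then numbered 20 to 24 higher and 25 to 30 lower in 6T-CEM and 31 to 40 and 34 to 36 in J.gamma1. The difference between lines failed to pass in DESeq2 for CD8B (1.25, adjusted p = 0.0667) and CD7 (0.32, adjusted p = 0.0607), and in 5 and 6 of the 8 fits with a library left out (CD8B 0.97 to 1.55, CD7 0.25 to 0.45). The difference of CD247 between the control lines was -0.062 with library totals only. A lone library was assumed to vary like the other groups. The cause was not tested for any of these.

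Gene by gene, deviations of libraries sharing a replicate number were nearly uncorrelated (correlation -0.023 for 6T-CEM, 0.00019 for J.gamma1, 2 pairs each). Library properties did shift together. In each of the 4 groups replicate 2 had more mitochondrial mRNA than replicate 1 (3.27% to 3.87% against 2.54% to 3.20%) and a lower TMM factor. Whether the replicate number pairs the libraries is thus not settled, and the main fits did not use this number. With it as a block, 6 members were higher and 1 lower in 6T-CEM and 7 and 1 in J.gamma1, and no call of a member changed. Few counts limit CD2 in 6T-CEM and CD8B in J.gamma1.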
